A study of Mus musculus with 28 samples.

Results

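Bone marrow-derived macrophages (BMM) lacking Irgm1 were compared with wild-type macrophages under the untreated control condition of the second of 2 experiments, using the 4 Irgm1KO control libraries and the 4 WT control libraries out of 28 messenger RNA libraries in the series. These 8 libraries were taken by their labels, and all genes that passed a filter on low counts were described. The Irgm1KO group carries the Irgm1-/- allele on a background backcrossed to C57BL/6, and the WT group is C57BL/6. Both groups were grown from tibia and femur marrow of male and female mice aged 2 to 4 months, cultured for 6 days with 20% L929 cell-conditioned medium (a source of the growth factor M-CSF), and moved 24 h before use to medium without it. Neither group received fenofibrate, the drug given at 50 µM to the other 8 libraries of that experiment. The labels do not say what the control cells were given in place of the drug, or whether each numbered library is a different animal. The p-values therefore rest on the variation among libraries, part of which may be technical.

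Irgm1 is a member of the immunity-related GTPases, proteins of mouse cells that interferon induces and that act on membranes of phagosomes, autophagosomes and mitochondria. Mice without it are known for poor control of intracellular bacteria and for macrophages with a type I interferon response in the absence of infection. Type I interferon binds the receptor IFNAR, and a complex of STAT proteins and IRF9 that follows binds a DNA element in the promoters of interferon-stimulated genes.

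The libraries held 83.3 to 120.8 M counts in Irgm1KO (99.1 ± 16.4 M, SD, n = 4) and 89.1 to 118.1 M counts in WT (101.5 ± 13 M). Xist, which is transcribed in female cells, was high in Irgm1KO libraries 1, 2 and 4 and in WT libraries 1 and 3, and genes of chromosome Y were high in Irgm1KO library 3 and WT libraries 2 and 4, so the groups hold libraries of both sexes in unequal numbers. For the most abundant gene, ENSMUSG00000119584, no symbol was found in the gene names used here, and what it encodes was not determined. It made up 1.26% to 3.60% of the counts in Irgm1KO and 1.52% to 10.3% in WT. Defining macrophage genes were abundant in both groups, with Csf1r (the M-CSF receptor) at 2508 ± 98.2 CPM in Irgm1KO and 3139 ± 143 CPM in WT and Adgre1 (the F4/80 antigen) at 1006 ± 25.5 CPM in Irgm1KO and 1534 ± 45.3 CPM in WT. Levels are in CPM, counts scaled to a common library size, given as mean ± SD over 4 libraries. Log2 fold changes are Irgm1KO over WT with their standard error (SE), from edgeR's quasi-likelihood test with p adjusted by Benjamini and Hochberg's method across the 14731 genes tested. A value marked log2, or the amount of a rise or fall, is such a log2 fold change.

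The libraries separated by genotype. The first principal component held 82.1% of the variance and placed all 4 Irgm1KO libraries between -31.2 and -23.1 and all 4 WT libraries between 25.5 and 32.2. The second component held 5.94% and did not separate the genotypes. Of 14731 tested genes, 4432 (30.1%) were higher and 4353 (29.5%) lower in Irgm1KO at an adjusted p below 0.05. Most changes were small, with a median absolute log2 fold change of 0.44 among called genes, and 788 genes (5.35%) were higher and 768 (5.21%) lower by more than 2-fold. The median log2 fold change of all tested genes was 0.0011. The 2 groups did not overlap for 55.9% of tested genes. With close to 60% of genes called (59.6%), a single call says little about a pathway, and each list of genes below is read against these shares.

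**Figure D1:**
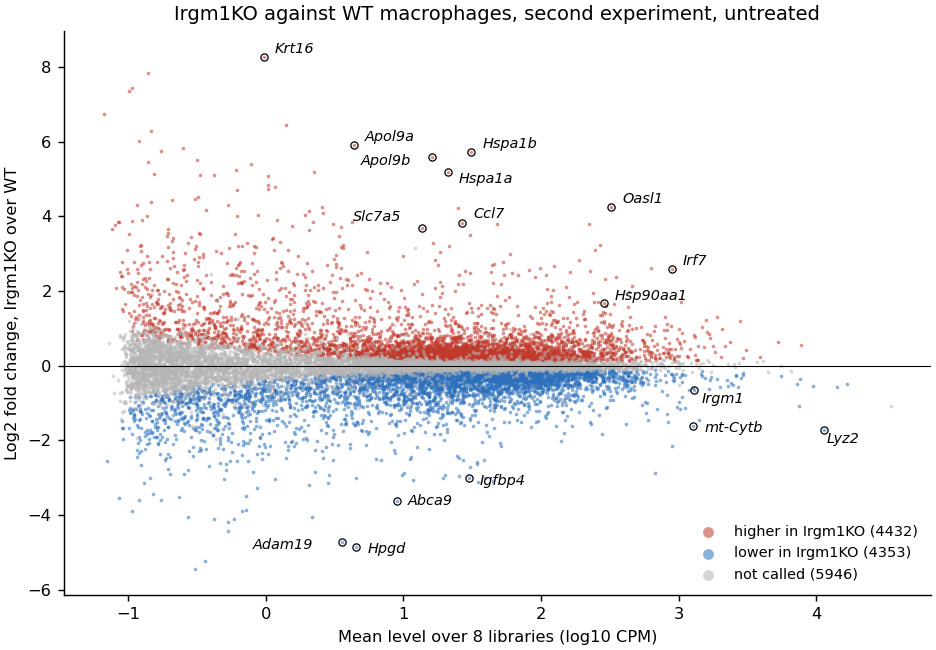
Log2 fold change (Irgm1KO over WT, y axis) of each of the 14731 tested genes against its mean level in the 8 libraries (x axis, log10 of mean CPM). Red points are genes called higher, blue points genes called lower and grey points genes that were not called, and the labelled genes that reach 5 CPM in either group reach from Apol9a at 5.91 to Hpgd at -4.87, with Krt16, a gene of lower level, at the top.

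Irgm1 itself had 993, 1016, 1001 and 972 CPM in Irgm1KO libraries 1 to 4, against 1639, 1480.3, 1615 and 1549 CPM in WT libraries 1 to 4. All Irgm1KO libraries lay below all WT libraries, and the log2 fold change was -0.66 (SE 0.046; adjusted p = 1.07e-06). Reads of the gene thus stood at 63.4% of the WT level in Irgm1KO cells, and a table with 1 count per gene does not show which part of the transcript they came from.

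Interferon-stimulated genes had the largest share of members higher among the 37 gene lists. Of 86 tested members 82 were higher in Irgm1KO, 53 of them by more than 2-fold, and 1 was lower, with a median log2 fold change of 1.22 against 0.0011 over all tested genes. In bulk RNA, a larger share of responding cells and more RNA per cell cannot be told apart. Oasl1, an oligoadenylate synthetase-like protein, had 699.8, 611, 515 and 631 CPM in Irgm1KO libraries 1 to 4, against 34.5, 29.2, 35.4 and 29.2 CPM in WT libraries 1 to 4. The lowest Irgm1KO library was far above the highest WT library, and the log2 fold change was 4.26 (SE 0.11; adjusted p = 2.26e-08). Irf7, the transcription factor that amplifies interferon production, had 1646, 1397, 1351 and 1705 CPM in Irgm1KO libraries 1 to 4, against 286, 202, 316 and 211 CPM in WT libraries 1 to 4. The groups were again separate (log2 fold change 2.59, SE 0.16), with Irgm1KO libraries 1 and 4 and WT libraries 1 and 3 the higher within their groups. Isg15, a ubiquitin-like modifier, had 515, 418, 347 and 493 CPM in Irgm1KO libraries 1 to 4, against 47.9, 50.4, 64.2 and 43.5 CPM in WT libraries 1 to 4, a log2 fold change of 3.11 (SE 0.17).

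Other antiviral effectors moved the same way by widely different amounts. Mx1, an antiviral dynamin-like GTPase, was at 419 ± 70.2 CPM in Irgm1KO and 30.2 ± 4.32 CPM in WT (log2 fold change 3.80, SE 0.15). Isg20, an exonuclease, was at 47.1 ± 15.7 CPM in Irgm1KO and 2.55 ± 0.542 CPM in WT (log2 4.22, SE 0.31). Ifit1, which binds viral RNA, was at 693 ± 57.5 CPM in Irgm1KO and 178 ± 23.3 CPM in WT (log2 1.96, SE 0.10). Usp18, which removes ISG15 and dampens receptor signalling, was at 384 ± 56.6 CPM in Irgm1KO and 66.3 ± 8.06 CPM in WT (log2 2.53, SE 0.13). Among abundant members some differences were small. Gbp2 stood at 6263 ± 309.5 CPM in Irgm1KO and 6897 ± 344 CPM in WT (adjusted p = 0.0703). Parp14 was at 1007 ± 79.1 CPM in Irgm1KO and 981 ± 61.4 CPM in WT (adjusted p = 0.639). Ly6a was at 1722 ± 70.2 CPM in Irgm1KO and 1595 ± 50.0 CPM in WT (adjusted p = 0.0654), and these 3 did not pass the test. Ly6e, a membrane protein, was the member that fell (2745 ± 168 CPM in Irgm1KO and 3142 ± 65 CPM in WT; log2 fold change -0.19, SE 0.055). Without WT library 2, Gbp2 passed as a second member that fell (adjusted p = 0.0398), and without Irgm1KO library 3, Ly6a passed as higher (adjusted p = 0.0414).

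**Figure D2:**
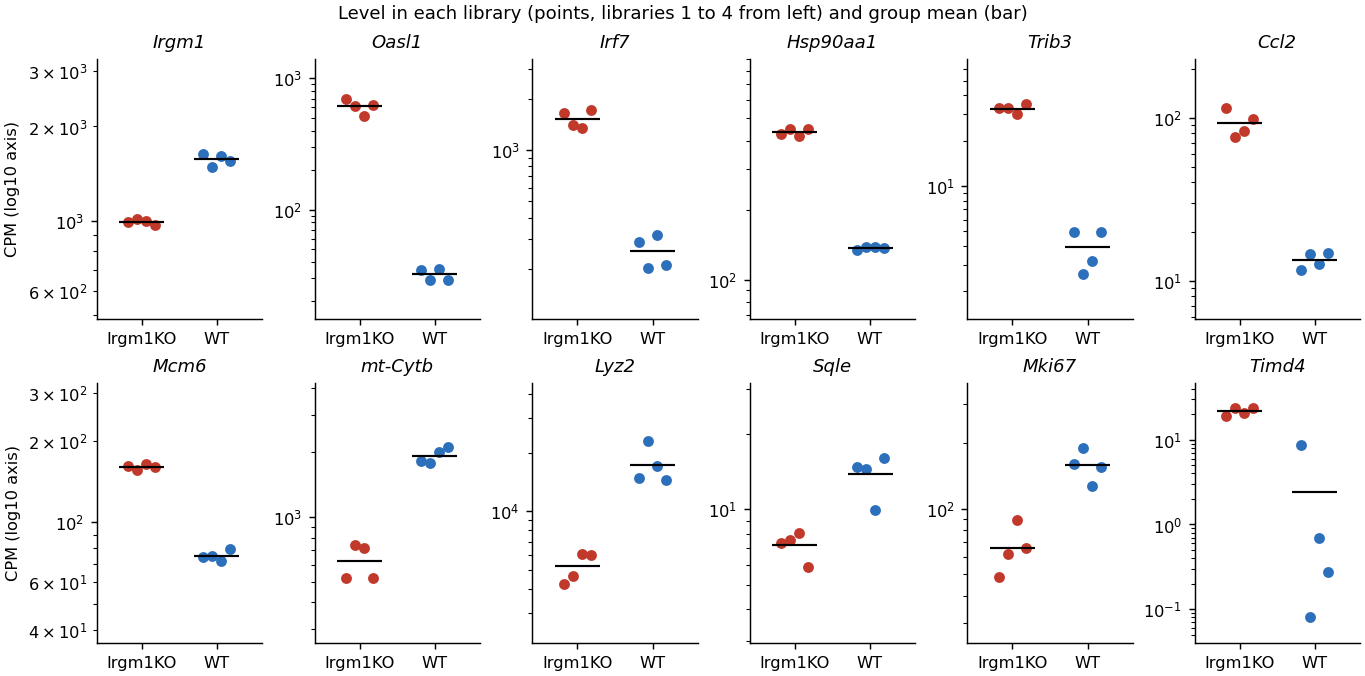
Level of 12 genes in each library, on a log10 CPM axis, with the 4 Irgm1KO libraries (red) left of the 4 WT libraries (blue) and a bar at each group's mean. Oasl1, Irf7, Hsp90aa1, Trib3, Ccl2 and Mcm6 are higher in every Irgm1KO library than in any WT library, Irgm1, mt-Cytb, Lyz2, Sqle and Mki67 are lower, and Timd4 has 1 WT library at 8.70 CPM above the other 3.

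Of 23 tested interferon and signalling genes 12 were higher and 4 lower. Ifnb1, which encodes interferon beta, had 1.91, 1.06, 1.10 and 1.99 CPM in Irgm1KO libraries 1 to 4, against 0.0513, 0.0114, 0.0108 and 0.0580 CPM in WT libraries 1 to 4. Its level was low in both groups, but no WT library reached the lowest Irgm1KO library (log2 fold change 5.39, SE 0.42). Stat2 was at 562 ± 56.7 CPM in Irgm1KO and 291 ± 22.7 CPM in WT (log2 0.95, SE 0.078). Irf5, a regulator of inflammatory cytokine genes, rose by 0.77 (SE 0.043). The receptor chains did not rise. Ifnar1 was at 125 ± 1.14 CPM in Irgm1KO and 133 ± 7.70 CPM in WT (adjusted p = 0.0632, and 0.0452 without WT library 1), while Ifnar2 (log2 -0.30, SE 0.041), the interferon gamma receptor chain Ifngr1 (log2 -0.57, SE 0.031), the myeloid factor Irf8 (log2 -0.38, SE 0.041) and the signalling inhibitor Socs3 (log2 -0.69, SE 0.093) fell.

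Irgm1's own family and the related guanylate-binding proteins, both strongly induced by interferon gamma, were mixed and never moved more than 2-fold. Among 10 tested immunity-related GTPases 5 rose and 3 fell, Irgm1 included. Tgtp1 (log2 0.69, SE 0.061), Gm4951 (log2 0.56, SE 0.055), Igtp (log2 0.43, SE 0.047), Irgm2 (log2 0.20, SE 0.043) and Tgtp2 (log2 0.17, SE 0.045) were the members that rose. Iigp1, which loads onto the vacuoles of parasites, fell (1592 ± 106 CPM in Irgm1KO and 2366 ± 129.9 CPM in WT; log2 -0.57, SE 0.062), as did Irgq (log2 -0.59, SE 0.037). Among 11 guanylate-binding proteins 3 rose (Gbp3, Gbp4 and Gbp10) and 3 fell (Gbp2b, Gbp5 and Gbp7; 5 fell by DESeq2), with a list median of -0.0096. Gbp5, which promotes inflammasome assembly, was at 1018 ± 50.9 CPM in Irgm1KO and 1211 ± 8.26 CPM in WT (log2 -0.25, SE 0.045).

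Sensors of foreign nucleic acid were mostly higher, with 19 of 28 tested members up and 3 down. Ifih1, the cytosolic RNA sensor MDA5, was at 442 ± 52.1 CPM in Irgm1KO and 145 ± 14.3 CPM in WT (log2 1.61, SE 0.095). Zbp1, a sensor of Z-form nucleic acid, was at 656 ± 34.8 CPM in Irgm1KO and 325 ± 33.1 CPM in WT (log2 1.01, SE 0.072). Tlr3, the endosomal receptor for double-stranded RNA, rose by 1.28 (SE 0.085) and Adar, the RNA editing enzyme, by 0.75 (SE 0.058). The DNA sensor Cgas rose by 0.48 (SE 0.057) and its adaptor STING, listed as Tmem173, by 0.30 (SE 0.050). The kinase Tbk1 was at 113 ± 2.93 CPM in Irgm1KO and 118 ± 2.56 CPM in WT (adjusted p = 0.146). The members that fell were Tlr8 (log2 -0.41, SE 0.049), the endolysosomal transporter Slc15a3 (log2 -0.43, SE 0.075) and the nucleotide hydrolase Enpp1 (log2 -0.57, SE 0.12).

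The DNA element bound by the STAT and IRF9 complex contains 2 GAAA cores, and the core with 2 bases of any kind between its copies (GAAANN followed by GAAA) was searched on both strands of RefSeq promoters (build GRCm38.p6, not the GRCm39 of the counts, 250 bases before to 50 after the start site), which 10021 tested genes had. A gene was counted when any of its promoters held the core, which favours genes with several promoters. By this count, 60 of 516 genes higher by more than 2-fold (11.6%) and 13 of 496 genes lower by more than 2-fold (2.62%) held it. Of all 10021 genes 411 did (4.10%). Counted per promoter instead, it was in 3.44% of all 32851 promoters. Of 67 interferon-stimulated genes with a promoter, 34 held it (50.7%). As a second motif, TTCNNNGAA, the core of the site bound by STAT dimers, was counted per gene in the same way. It was held by 9.30% of genes higher by more than 2-fold, 6.45% of those lower by more than 2-fold and 8.21% of all tested genes with a promoter. A match is a description of the letters in this window. The 250 bases before the start site are shown for the 6 named genes with a match and the smallest p, with matches to that core in capitals (TTTC, any 2 bases and TTTC where the match is on the other strand), 5′ to 3′ in the direction of the gene.
Mitd1: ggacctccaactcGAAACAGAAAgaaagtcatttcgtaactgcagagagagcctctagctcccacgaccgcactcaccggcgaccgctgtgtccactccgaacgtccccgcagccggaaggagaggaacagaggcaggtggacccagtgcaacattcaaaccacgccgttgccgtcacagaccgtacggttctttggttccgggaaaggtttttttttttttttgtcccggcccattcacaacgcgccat
Bst2: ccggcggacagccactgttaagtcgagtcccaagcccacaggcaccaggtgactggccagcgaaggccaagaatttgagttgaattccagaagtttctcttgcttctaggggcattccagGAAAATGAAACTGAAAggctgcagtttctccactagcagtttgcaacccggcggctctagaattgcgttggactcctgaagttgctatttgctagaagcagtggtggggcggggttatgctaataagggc
Apol9a: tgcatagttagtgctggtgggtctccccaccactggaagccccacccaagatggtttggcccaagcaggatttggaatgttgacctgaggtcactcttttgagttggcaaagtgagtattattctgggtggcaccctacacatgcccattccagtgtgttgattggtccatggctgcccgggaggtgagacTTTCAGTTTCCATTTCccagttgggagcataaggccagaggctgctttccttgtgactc
Apol9b: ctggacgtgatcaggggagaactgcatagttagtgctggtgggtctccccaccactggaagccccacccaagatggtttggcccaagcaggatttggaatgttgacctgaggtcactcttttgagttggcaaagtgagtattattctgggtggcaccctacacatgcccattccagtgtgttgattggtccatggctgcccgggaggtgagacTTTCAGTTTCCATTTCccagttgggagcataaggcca
Ncoa4: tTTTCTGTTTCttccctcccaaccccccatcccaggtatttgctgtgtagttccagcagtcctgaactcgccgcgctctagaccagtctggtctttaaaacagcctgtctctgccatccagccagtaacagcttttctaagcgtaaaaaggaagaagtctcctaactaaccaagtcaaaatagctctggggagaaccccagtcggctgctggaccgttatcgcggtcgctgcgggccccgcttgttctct
Ifit1: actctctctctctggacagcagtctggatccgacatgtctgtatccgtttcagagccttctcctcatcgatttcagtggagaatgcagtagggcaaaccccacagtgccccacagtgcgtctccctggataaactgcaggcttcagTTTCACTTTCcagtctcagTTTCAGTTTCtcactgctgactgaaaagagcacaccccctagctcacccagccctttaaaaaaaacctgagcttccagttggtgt
These are Mitd1 (chr1:37890412-37890661, minus strand), Bst2 (chr8:71537473-71537722, minus strand), Apol9a (chr15:77411081-77411330, minus strand), Apol9b (chr15:77728822-77729071, plus strand), Ncoa4 (chr14:32165336-32165585, plus strand) and Ifit1 (chr19:34640639-34640888, plus strand). Bst2, Apol9a and Apol9b each have 2 overlapping matches, which begin 130 bases before the start site in Bst2, 59 in Apol9a and 37 in Apol9b, and the Ifit1 promoter has 2 separate ones that begin at 104 and 85 bases. The Apol9a and Apol9b promoters carry the same run of capitals. Apol9a, an apolipoprotein L, had 10.6, 9.29, 5.86 and 8.40 CPM in Irgm1KO libraries 1 to 4, against 0.144, 0.171, 0.151 and 0.108 CPM in WT libraries 1 to 4, and Apol9b had 39.1, 33.9, 23.1 and 30.9 CPM in Irgm1KO libraries 1 to 4, against 0.862, 0.674, 0.613 and 0.514 CPM in WT libraries 1 to 4. Their rises (log2 fold change 5.91, SE 0.23, and 5.58, SE 0.22) were among the 4 largest of genes that reach 5 CPM in either group, although reads of such near-identical copies may have been divided between them. Bst2 (tetherin, which holds budding virus at the membrane) rose to 635 ± 52.9 CPM in Irgm1KO, against 215 ± 12.2 CPM in WT (log2 1.56, SE 0.065) and Mitd1 to 32.7 ± 1.77 CPM in Irgm1KO, against 13.2 ± 0.262 CPM in WT (log2 1.31, SE 0.045). Ncoa4, the receptor for autophagy of ferritin, has the motif in this window and fell (42.0 ± 1.79 CPM in Irgm1KO and 68.3 ± 1.47 CPM in WT; log2 -0.70, SE 0.038).

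Inflammatory mediators were mostly higher. Of 31 tested cytokines and chemokines 21 were higher, 11 of them by more than 2-fold, and 1 was lower. Ccl2, which attracts monocytes, had 114, 75.8, 82.4 and 98.1 CPM in Irgm1KO libraries 1 to 4, against 11.6, 14.7, 12.7 and 14.7 CPM in WT libraries 1 to 4. Every Irgm1KO library exceeded every WT library (log2 fold change 2.79, SE 0.15). Ccl7 was at 49.9 ± 11.6 CPM in Irgm1KO and 3.56 ± 0.426 CPM in WT (log2 3.81, SE 0.18). Among the ligands of the T cell receptor CXCR3, Cxcl11 was at 88.8 ± 15.8 CPM in Irgm1KO and 6.38 ± 1.2 CPM in WT (log2 3.80, SE 0.18), while the more abundant Cxcl9 and Cxcl10 rose by only 0.54 (SE 0.16) and 0.47 (SE 0.082). Il1rn, the antagonist of the interleukin-1 receptor, was at 152 ± 33.3 CPM in Irgm1KO and 29.5 ± 3.73 CPM in WT (log2 2.37, SE 0.18). Tnf rose by 0.56 (SE 0.052), Il15 by 1.03 (SE 0.064) and Il18 by 0.98 (SE 0.067). Il6 rose at a trace level (0.158 ± 0.0424 CPM in Irgm1KO and 0.0219 ± 0.00936 CPM in WT; log2 2.77, SE 0.40). Il1b was the member that fell (1.24 ± 0.267 CPM in Irgm1KO and 3.19 ± 0.359 CPM in WT; log2 -1.36, SE 0.15), and 2 members were lower without Irgm1KO library 3 or without WT library 4.

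The genes that NF-kB drives as feedback and activation markers moved far less uniformly, with 9 of 26 higher, 7 lower and a median of 0.090. The inhibitor Nfkbia (123 ± 9.17 CPM in Irgm1KO and 111 ± 8.49 CPM in WT, adjusted p = 0.0628) and the adhesion molecule Icam1 (495 ± 43.3 CPM in Irgm1KO and 454 ± 18 CPM in WT, adjusted p = 0.106) did not pass the test. Without Irgm1KO library 3, in which Nos2 was lowest, 15 of the 26 were higher, Nfkbia (adjusted p = 0.0126) and Icam1 (adjusted p = 0.00612) among them. That library is also the only Irgm1KO library with low Xist, and in libraries with high Xist alone 14 of the 26 were higher. The sex of that library and its other features cannot be told apart here. Gadd45b (log2 1.19, SE 0.072), Cd40 (log2 1.13, SE 0.10) and Ptgs2 (log2 1.10, SE 0.10) rose, and Cd83 (log2 -1.04, SE 0.075), Tnfaip2 (log2 -0.52, SE 0.071), Nfkb1 (log2 -0.28, SE 0.039) and Rel (log2 -0.30, SE 0.049) fell. Of 10 enzymes of nitric oxide, arginine and itaconate metabolism 6 rose. Nos2, the inducible nitric oxide synthase, had 266, 268, 181 and 267 CPM in Irgm1KO libraries 1 to 4, against 52, 47.1, 63.9 and 64.4 CPM in WT libraries 1 to 4. The groups did not overlap, and the log2 fold change was 2.11 (SE 0.16). Ass1, which recycles citrulline to arginine, rose by 1.06 (SE 0.12), Gch1, which makes the cofactor of nitric oxide synthase, by 1.11 (SE 0.068) and the itaconate-producing enzyme Acod1 by 0.64 (SE 0.12; 1226 ± 179 CPM in Irgm1KO and 787 ± 100.0 CPM in WT). Arg1 rose but stayed near 1 CPM (1.2 ± 0.389 CPM in Irgm1KO and 0.0422 ± 0.0274 CPM in WT).

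Genes of cell death rose in 20 of 29 cases and fell in 5. Mlkl, the executioner of necroptosis, was at 164 ± 12.6 CPM in Irgm1KO and 63.2 ± 3.37 CPM in WT (log2 1.37, SE 0.059). Casp1 was at 394 ± 14.9 CPM in Irgm1KO and 226 ± 17.4 CPM in WT (log2 0.80, SE 0.057). The lipopolysaccharide-sensing Casp4 was at 138 ± 6.06 CPM in Irgm1KO and 84.9 ± 1.80 CPM in WT (log2 0.70, SE 0.038). The inflammasome sensor Nlrp3 fell (log2 -0.38, SE 0.059), as did the pro-apoptotic Bcl2l11 (log2 -0.72, SE 0.086). Toll-like receptors and their co-receptors were divided, 6 of 14 higher and 6 lower. Cd14, the co-receptor for lipopolysaccharide, fell to 47.4 ± 4.33 CPM in Irgm1KO, against 136 ± 13.9 CPM in WT (log2 -1.52, SE 0.085), and Tlr2 (log2 -0.78, SE 0.071) and Ly86 (log2 -0.91, SE 0.11) fell with it.

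Class I and class II antigen presentation went in different directions. Of 23 class I genes 18 were higher and 2 lower (median 0.48), and of 13 class II genes 1 was higher and 6 lower (median -0.17). The nonclassical H2-T22 was at 454 ± 48.0 CPM in Irgm1KO and 212 ± 11.8 CPM in WT (log2 1.10, SE 0.075). The peptide transporter subunit Tap2 was at 383 ± 20.9 CPM in Irgm1KO and 239 ± 8.76 CPM in WT (log2 0.68, SE 0.048). The invariant light chain B2m was at 5524 ± 231 CPM in Irgm1KO and 5593 ± 159 CPM in WT (adjusted p = 0.789). The class I members that fell were the endoplasmic reticulum chaperones Calr (log2 -0.26, SE 0.056) and Pdia3 (log2 -0.31, SE 0.048). In class II, the master regulator Ciita fell to 386 ± 36.6 CPM in Irgm1KO, against 520.4 ± 39.1 CPM in WT (log2 -0.43, SE 0.075), and H2-Eb1 (log2 -0.38, SE 0.089) and the protease Ctss (log2 -0.49, SE 0.062) fell too, while H2-Ab1 (1176 ± 52.5 CPM in Irgm1KO and 1317 ± 158 CPM in WT) and the invariant chain Cd74 (4209 ± 154 CPM in Irgm1KO and 4742 ± 622 CPM in WT) did not pass the test with all libraries and were lower without WT library 4 (adjusted p = 0.00634 and 0.00575). Without WT library 1, 2 class II genes were higher. Cd86, a ligand of CD28 on T cells, rose by 0.75 (SE 0.063) while its partner Cd80 fell by 0.90 (SE 0.086). Of 18 complement genes 6 rose and 4 fell. C3, the central component, rose to 2752 ± 232 CPM in Irgm1KO, against 1381 ± 221 CPM in WT (log2 0.99, SE 0.11). The recognition chains C1qb (log2 -0.57, SE 0.070) and C1qc (log2 -0.46, SE 0.090) fell.

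**Figure D3:**
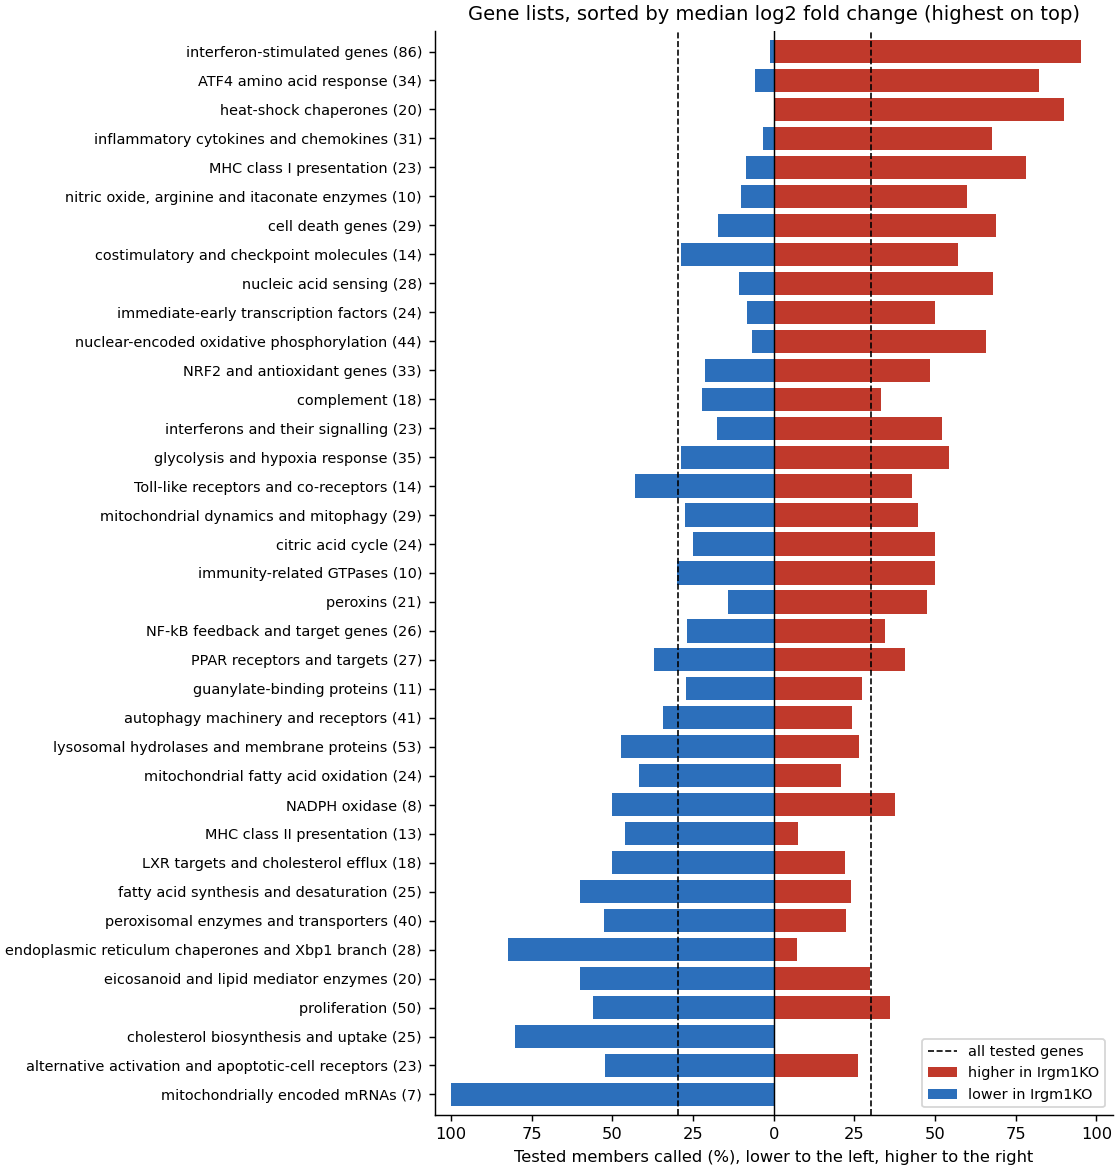
Share of tested members called higher (red, to the right) and lower (blue, to the left) in Irgm1KO for each of the 37 gene lists, with the number of tested members in brackets and lists sorted by their median log2 fold change. Dashed lines mark the share of all tested genes, 30.1% higher and 29.5% lower, and the interferon-stimulated, heat-shock and amino acid response lists stand at one end with the mitochondrially encoded and cholesterol lists at the other.

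Cytosolic chaperones of the heat-shock response rose in 18 of 20 tested genes and fell in none of them, with a median of 0.92 (0 fell at an unadjusted p below 0.05 in edgeR or by DESeq2). The inducible HSP70 genes Hspa1b and Hspa1a, near-identical copies, were among the 4 largest rises of genes that reach 5 CPM in either group. Hspa1a had 40.5, 44.0, 36.9 and 42.4 CPM in Irgm1KO libraries 1 to 4, against 1.3, 0.571, 1.61 and 1.02 CPM in WT libraries 1 to 4. Hspa1b was at 61.0 ± 8.08 CPM in Irgm1KO and 1.15 ± 0.396 CPM in WT (log2 fold change 5.72, SE 0.22; log2 5.18, SE 0.24 for Hspa1a). Hsp90aa1, the stress-induced HSP90, had 428, 451, 417 and 448 CPM in Irgm1KO libraries 1 to 4, against 135, 139, 138 and 137 CPM in WT libraries 1 to 4. Its libraries differed little within a group, and its log2 fold change of 1.67 (SE 0.038; adjusted p = 2.44e-09) was among the best determined in the table. The co-chaperones Dnaja1 (log2 1.70, SE 0.039), Hsph1 (log2 1.87, SE 0.059) and Stip1 (log2 1.03, SE 0.034) rose too. Hsf2 (19.5 ± 0.717 CPM in Irgm1KO and 18.2 ± 0.654 CPM in WT) and Cryab (0.840 ± 0.719 CPM in Irgm1KO and 1.61 ± 0.305 CPM in WT) did not pass the test, though Hsf2 did without Irgm1KO library 1 (adjusted p = 0.0493).

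ATF4 is a transcription factor made when amino acids run short or when other stresses phosphorylate the initiation factor eIF2, and it drives genes of amino acid supply. Of 34 tested members of its list 28 were higher, 19 by more than 2-fold, and 2 were lower (median 1.21). Trib3, a pseudokinase that feeds back on ATF4, had 32.8, 33.0, 30.3 and 34.9 CPM in Irgm1KO libraries 1 to 4, against 4.97, 2.61, 3.17 and 4.94 CPM in WT libraries 1 to 4. The groups were far apart (log2 fold change 3.05, SE 0.21). Asparagine synthetase, Asns, had 89.1, 88.7, 85.0 and 98.9 CPM in Irgm1KO libraries 1 to 4, against 19.6, 11.8, 13.5 and 22 CPM in WT libraries 1 to 4 (log2 2.43, SE 0.20). The large neutral amino acid transporter Slc7a5 was at 25.3 ± 3.99 CPM in Irgm1KO and 1.97 ± 0.327 CPM in WT (log2 3.67, SE 0.15). Its partner chain Slc3a2 was at 522 ± 29.1 CPM in Irgm1KO and 240.0 ± 11.6 CPM in WT (log2 1.12, SE 0.052). Atf4 mRNA itself rose to 205 ± 13.6 CPM in Irgm1KO, against 84.7 ± 12.6 CPM in WT (log2 1.28, SE 0.10) and the downstream factor Ddit3 (CHOP) to 52.2 ± 3.12 CPM in Irgm1KO, against 17.8 ± 2.81 CPM in WT (log2 1.55, SE 0.11). The cystine transporter Slc7a11, another target, was at 4.66 ± 0.617 CPM in Irgm1KO and 4.78 ± 1.74 CPM in WT (adjusted p = 0.905). Wars, a tryptophanyl-tRNA synthetase that interferon gamma also induces, fell (log2 -0.44, SE 0.041).

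Endoplasmic reticulum chaperones and targets of Xbp1, which respond to misfolded protein inside that organelle, fell in 23 of 28 tested cases and rose in 2 (median -0.38). Herpud1 was at 33.0 ± 0.468 CPM in Irgm1KO and 70.1 ± 4.53 CPM in WT (log2 -1.08, SE 0.046). Dnajc3 was at 119 ± 7.58 CPM in Irgm1KO and 235 ± 9.93 CPM in WT (log2 -0.99, SE 0.051). Sdf2l1 was at 119 ± 4.40 CPM in Irgm1KO and 197 ± 9.04 CPM in WT (log2 -0.73, SE 0.043). Derl1 (log2 0.24, SE 0.036) and Derl2 (log2 0.15, SE 0.039), channels for the export of misfolded protein, were the members that rose. Of 33 antioxidant genes linked to NRF2 16 rose and 7 fell (4 fell in a fit of all 16 libraries of the experiment and in libraries with high Xist). Heme oxygenase Hmox1 was at 342 ± 13.8 CPM in Irgm1KO and 168 ± 19.1 CPM in WT (log2 1.03, SE 0.074). Peroxiredoxin Prdx1 was at 1342 ± 101 CPM in Irgm1KO and 681 ± 57.9 CPM in WT (log2 0.98, SE 0.072) and the autophagy receptor Sqstm1 (p62) at 1118 ± 67.7 CPM in Irgm1KO and 517 ± 44.9 CPM in WT (log2 1.11, SE 0.068). The mRNA of NRF2 itself, Nfe2l2, fell to 269 ± 11.4 CPM in Irgm1KO, against 429 ± 25.2 CPM in WT (log2 -0.67, SE 0.050). The mRNA of its inhibitor Keap1 rose (log2 0.77, SE 0.050).

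Messenger RNAs encoded by the mitochondrial genome fell while nuclear-encoded subunits of the same complexes rose. All 7 mitochondrially encoded mRNAs that could be tested were lower by more than 2-fold (median -1.17). Cytochrome b, mt-Cytb, had 518, 741, 719 and 519.6 CPM in Irgm1KO libraries 1 to 4, against 1824, 1779, 2014 and 2113 CPM in WT libraries 1 to 4. The highest Irgm1KO library was far below the lowest WT library (log2 fold change -1.63, SE 0.13). The subunit of complex IV mt-Co1 was at 4761 ± 408 CPM in Irgm1KO and 10139.6 ± 497 CPM in WT (log2 -1.09, SE 0.073), and the complex I subunits ran from -1.05 (mt-Nd6, SE 0.12) to -1.46 (mt-Nd4, SE 0.10). Counted reads of mitochondrially encoded mRNAs, nearly all from these 7, took 0.777 ± 0.0988% of the counts in Irgm1KO libraries. In WT libraries they took 1.73 ± 0.143%. The other 6 of the 13 mRNAs had at most 5 counts in any library and allow no comparison. Whether their level was low or their reads were lost in mapping or counting cannot be told from the counts. Of 44 nuclear-encoded subunits and carriers 29 rose and 3 fell, by a median of 0.22. Cytochrome c, Cycs, was at 132 ± 9.0 CPM in Irgm1KO and 61.0 ± 3.82 CPM in WT (log2 1.11, SE 0.058), and the complex III subunits Cyc1 (log2 0.67, SE 0.045) and Uqcrq (log2 0.67, SE 0.043) rose. Ndufa1 (log2 -0.37, SE 0.040), Ndufb3 (log2 -0.19, SE 0.033) and Cox6c (log2 -0.14, SE 0.057) fell. The Cox6c call was at the threshold (adjusted p = 0.0497) and was lost without any 1 of Irgm1KO libraries 1, 2 and 4 and WT libraries 1, 2 and 3, with adjusted p up to 0.133.

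Among 29 genes of mitochondrial dynamics, mitophagy and DNA maintenance 13 rose and 8 fell. Pink1, the kinase that marks damaged mitochondria, fell to 17.9 ± 1.55 CPM in Irgm1KO, against 44.7 ± 2.58 CPM in WT (log2 -1.32, SE 0.066), as did the mitophagy receptors Bnip3l (log2 -0.52, SE 0.045) and Fundc1 (log2 -0.44, SE 0.058). For the handling of mitochondrial RNA and DNA, the polynucleotide phosphorylase Pnpt1 rose (70.8 ± 4.32 CPM in Irgm1KO and 32.3 ± 1.66 CPM in WT; log2 1.13, SE 0.053), the transcription factor Tfam rose by 0.39 (SE 0.048) and Tfb2m fell by 0.51 (SE 0.064), and the polymerase Polg fell by 0.41 (SE 0.046). Lrpprc was at 72.3 ± 1.17 CPM in Irgm1KO and 68.7 ± 2.60 CPM in WT (adjusted p = 0.0959). In the citric acid cycle 12 of 24 genes rose and 6 fell, and the largest of the named changes was the fall of the cytosolic enzyme Idh1 (53.5 ± 4.02 CPM in Irgm1KO and 107 ± 3.42 CPM in WT; log2 -1.0, SE 0.053). Of 35 genes of glycolysis and the hypoxia response 19 rose and 10 fell. The glycolytic enzymes Aldoa (log2 0.82, SE 0.057), Pkm (log2 0.73, SE 0.048), Eno1 (log2 0.67, SE 0.048) and Tpi1 (log2 0.65, SE 0.042) rose, and the phosphofructokinase Pfkm (log2 -0.57, SE 0.060) and the oxygen sensor Egln1 (log2 -0.40, SE 0.036) fell.

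Genes of cholesterol synthesis and uptake, which the factor SREBP2 controls as a group, fell in 20 of 25 tested cases and rose in none of them (median -0.50; 0 rose at an unadjusted p below 0.05 in edgeR or by DESeq2). Sqle, the squalene epoxidase, had 7.34, 7.57, 8.05 and 5.88 CPM in Irgm1KO libraries 1 to 4, against 14.7, 14.5, 9.96 and 16.0 CPM in WT libraries 1 to 4. The highest Irgm1KO library was below the lowest WT library (log2 fold change -0.93, SE 0.15). Pmvk (log2 -0.98, SE 0.078), the synthase Hmgcs1 (log2 -0.50, SE 0.046) and the feedback protein Insig1 (log2 -0.57, SE 0.059) fell as well. Msmo1 was at 46.9 ± 2.57 CPM in Irgm1KO and 46.6 ± 3.78 CPM in WT (adjusted p = 0.914).

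Fatty acid synthesis genes were lower for 15 of 25 and higher for 6 (3 without Irgm1KO library 4). Fasn, the fatty acid synthase, was at 32.0 ± 0.969 CPM in Irgm1KO and 61.0 ± 4.61 CPM in WT (log2 -0.93, SE 0.053). The carboxylase Acaca was at 11.7 ± 0.540 CPM in Irgm1KO and 19.7 ± 0.558 CPM in WT (log2 -0.74, SE 0.048). The desaturase Scd2 was at 9.49 ± 1.57 CPM in Irgm1KO and 59.4 ± 6.31 CPM in WT (log2 -2.64, SE 0.12). Acsl1, which activates long-chain fatty acids, rose to 915 ± 88.5 CPM in Irgm1KO, against 436 ± 42.8 CPM in WT (log2 1.07, SE 0.085). Of 18 targets of the sterol receptor LXR and efflux genes 9 fell and 4 rose. The cholesterol exporter Abca1 had 68.8, 66.8, 57.2 and 59.6 CPM in Irgm1KO libraries 1 to 4, against 196, 197, 222 and 162 CPM in WT libraries 1 to 4, a log2 fold change of -1.62 (SE 0.10). Ch25h, the interferon-inducible cholesterol 25-hydroxylase, rose to 103 ± 28.5 CPM in Irgm1KO, against 18.4 ± 5.56 CPM in WT (log2 2.49, SE 0.29) and the receptor Nr1h3 (LXR alpha) to 60.0 ± 7.17 CPM in Irgm1KO, against 20.8 ± 2.80 CPM in WT (log2 1.53, SE 0.11). Lipoprotein lipase, Lpl, had 1988, 1973, 1924 and 2058 CPM in Irgm1KO libraries 1 to 4, against 982, 842, 1180.5 and 889 CPM in WT libraries 1 to 4 (log2 1.03, SE 0.094). PPAR receptors and their targets were divided, 11 of 27 higher and 10 lower. Pparg rose (33.2 ± 2.47 CPM in Irgm1KO and 18.8 ± 2.87 CPM in WT; log2 0.83, SE 0.10) and Ppard fell (log2 -0.59, SE 0.051). The fatty acid transporter Cd36 rose (589 ± 127 CPM in Irgm1KO and 279.7 ± 97.0 CPM in WT; log2 1.07, SE 0.31) with a wide spread within both groups, the lipid droplet protein Plin2 rose (log2 0.70, SE 0.063) and the carrier Fabp5 fell (log2 -0.93, SE 0.061).

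Peroxisomes oxidize very long-chain and branched fatty acids and detoxify hydrogen peroxide. Of 40 tested peroxisomal enzymes and transporters 21 fell and 9 rose (median -0.25), whereas of 21 peroxins and division factors, which build the organelle, 10 rose and 3 fell (median 0.096). The multifunctional enzyme Hsd17b4 was at 67.5 ± 4.20 CPM in Irgm1KO and 129 ± 9.81 CPM in WT (log2 -0.93, SE 0.061). Catalase, Cat, was at 134 ± 7.31 CPM in Irgm1KO and 193 ± 16.5 CPM in WT (log2 -0.53, SE 0.063). Phyh, for branched chains, rose (log2 0.75, SE 0.058), as did the transporter Abcd3 (log2 0.27, SE 0.030). Among the peroxins, Pex16 was at 15.5 ± 2.22 CPM in Irgm1KO and 7.2 ± 0.299 CPM in WT (log2 1.10, SE 0.093) and Pex14 rose by 0.37 (SE 0.047). The import receptor Pex5 fell (28.4 ± 0.733 CPM in Irgm1KO and 37.2 ± 1.2 CPM in WT; log2 -0.39, SE 0.036). Of 24 genes of the mitochondrial route 10 were lower (41.7%) and 5 higher (20.8%), with a small median of -0.080. Of all tested genes 29.5% were lower and 30.1% higher. Hadha stood at 124 ± 5.24 CPM in Irgm1KO and 124 ± 1.10 CPM in WT.

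Enzymes of lipid mediators fell in 12 of 20 cases and rose in 6. Hpgd, which inactivates prostaglandins, had 0.201, 0.337, 0.370 and 0.305 CPM in Irgm1KO libraries 1 to 4, against 6.85, 16.8, 4.15 and 7.46 CPM in WT libraries 1 to 4. It was the largest fall among named genes (log2 fold change -4.87, SE 0.53), with WT library 2 the highest by far. Alox5 (1.15 ± 0.209 CPM in Irgm1KO and 4.92 ± 0.828 CPM in WT; log2 -2.11, SE 0.15) and Ptgs1 (2.53 ± 0.119 CPM in Irgm1KO and 8.73 ± 1.42 CPM in WT; log2 -1.79, SE 0.11) fell, and the inducible cyclooxygenase Ptgs2 rose, as given above. Pla2g7, which degrades platelet-activating factor, fell to 122 ± 9.06 CPM in Irgm1KO, against 434 ± 65.4 CPM in WT (log2 -1.84, SE 0.11). The prostacyclin receptor Ptgir rose (log2 1.29, SE 0.11).

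Of 41 genes of the autophagy machinery and its receptors 10 rose and 14 fell, close to the shares of all tested genes. The initiating kinases Ulk1 (28.2 ± 1.12 CPM in Irgm1KO and 48.0 ± 0.369 CPM in WT; log2 -0.77, SE 0.036) and Ulk2 (log2 -0.95, SE 0.065) and the membrane tag Map1lc3b (65 ± 2.19 CPM in Irgm1KO and 94.6 ± 2.47 CPM in WT; log2 -0.54, SE 0.036) fell, and the conjugating enzyme Atg3 (log2 0.49, SE 0.036) and the regulator Tfeb (log2 0.49, SE 0.055) rose. Of 53 lysosomal genes 25 fell and 14 rose. The sugar hydrolases Galc (59.9 ± 6.54 CPM in Irgm1KO and 154 ± 8.53 CPM in WT; log2 -1.36, SE 0.075), Gusb (338 ± 24.2 CPM in Irgm1KO and 809.8 ± 41.2 CPM in WT; log2 -1.26, SE 0.060) and Hexa (log2 -0.85, SE 0.061) fell, and the cathepsins Ctsk (log2 1.82, SE 0.15) and Ctsz (log2 0.51, SE 0.048) rose.

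Genes of the cell cycle parted by phase. Over the whole list of 50, 28 were lower and 18 higher. Divided by role, a division made after the values were seen, 16 of 20 genes of the G1/S transition and DNA replication were higher and 1 lower (median 0.61), and 26 of 28 genes of G2 and mitosis were lower and 2 higher (median -0.97). Ccnd1, the D-type cyclin of early G1, had 400.2, 381, 397 and 409 CPM in Irgm1KO libraries 1 to 4, against 130.2, 116, 119.5 and 122 CPM in WT libraries 1 to 4, a log2 fold change of 1.70 (SE 0.045). Mcm6, a subunit of the replicative helicase, had 161, 156, 164 and 160.5 CPM in Irgm1KO libraries 1 to 4, against 74.6, 75.1, 71.7 and 79.5 CPM in WT libraries 1 to 4 (log2 1.09, SE 0.038). The sliding clamp Pcna was at 282 ± 7.86 CPM in Irgm1KO and 152 ± 6.21 CPM in WT (log2 0.90, SE 0.040). Mki67, which coats mitotic chromosomes, had 48.5, 62.1, 89.1 and 65.7 CPM in Irgm1KO libraries 1 to 4, against 161, 189, 127 and 154 CPM in WT libraries 1 to 4. The groups did not overlap, though Irgm1KO libraries ranged widely (log2 -1.25, SE 0.20). Cdc20 (7.84 ± 0.455 CPM in Irgm1KO and 22.2 ± 2.30 CPM in WT; log2 -1.50, SE 0.078), Cenpa (log2 -1.53, SE 0.10) and Kif20a (log2 -1.41, SE 0.10), all of mitosis, fell, and the ribonucleotide reductase subunit Rrm2 (log2 -0.45, SE 0.071) was the replication gene that fell and was named after its values were seen. Of the inhibitors, Cdkn2c fell (log2 -0.99, SE 0.074) and Cdkn1a (p21) was at 345 ± 28.8 CPM in Irgm1KO and 345 ± 27.2 CPM in WT (adjusted p = 0.987).

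Genes that mark resident and alternatively activated macrophages were mostly lower. Of 23 tested genes of alternative activation and of receptors for apoptotic cells 12 fell, 9 of them by more than 2-fold, and 6 rose. The mannose receptor Mrc1 was at 8.04 ± 1.85 CPM in Irgm1KO and 53.2 ± 17.3 CPM in WT (log2 -2.72, SE 0.28). The scavenger receptor Stab1 was at 64.9 ± 8.28 CPM in Irgm1KO and 227 ± 33.2 CPM in WT (log2 -1.81, SE 0.12). The interleukin-4 receptor chain Il4ra was at 187 ± 8.57 CPM in Irgm1KO and 408 ± 20.3 CPM in WT (log2 -1.12, SE 0.048), and the bridging proteins for apoptotic cells Pros1 (log2 -2.08, SE 0.12) and Gas6 (log2 -1.52, SE 0.079) fell with the receptor Mertk (log2 -0.57, SE 0.13). Klf4 rose (73.8 ± 10.1 CPM in Irgm1KO and 15.8 ± 3.0 CPM in WT; log2 2.22, SE 0.16). Timd4, another receptor for apoptotic cells, had 19.2, 23.5, 20.7 and 23.6 CPM in Irgm1KO libraries 1 to 4, against 8.70, 0.0800, 0.688 and 0.273 CPM in WT libraries 1 to 4. All WT libraries were below all Irgm1KO libraries, but WT library 1 stood far above the other WT libraries and the difference did not pass the test (log2 fold change 3.16, SE 1.2; adjusted p = 0.0606). Without WT library 1 the log2 fold change was 5.97 (adjusted p = 6.47e-05). Lysozyme, Lyz2, among the most abundant macrophage mRNAs, had 4228, 4669, 6045 and 5989 CPM in Irgm1KO libraries 1 to 4, against 14882, 22883, 17047 and 14440.2 CPM in WT libraries 1 to 4 (log2 -1.73, SE 0.17). Of 12 macrophage markers 7 were lower and 2 higher.

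Besides Hpgd, the 12 largest falls among genes that reach 5 CPM in either group included the metalloprotease Adam19 (0.258 ± 0.124 CPM in Irgm1KO and 6.87 ± 4.11 CPM in WT; log2 -4.72, SE 0.60), the transporter Abca9 (1.33 ± 0.101 CPM in Irgm1KO and 16.5 ± 3.24 CPM in WT; log2 -3.64, SE 0.15), Rtn1 (log2 -3.14, SE 0.23), Plxdc2 (7.11 ± 3.12 CPM in Irgm1KO and 62.2 ± 26.7 CPM in WT; log2 -3.13, SE 0.45), Rnf150 (9.39 ± 1.58 CPM in Irgm1KO and 79.4 ± 7.64 CPM in WT; log2 -3.08, SE 0.13), the potassium channel Kcnj10 (log2 -3.07, SE 0.46), the epoxide hydrolase Ephx1 (8.6 ± 1.44 CPM in Irgm1KO and 69.3 ± 15.2 CPM in WT; log2 -3.01, SE 0.19), the adaptor Gab1 (log2 -3.01, SE 0.19) and Nxpe5 (log2 -3.0, SE 0.11). Igfbp4, which binds insulin-like growth factors, had 5.74, 6.35, 7.96 and 6.29 CPM in Irgm1KO libraries 1 to 4, against 47.7, 49.4, 58.9 and 56.2 CPM in WT libraries 1 to 4, a log2 fold change of -3.01 (SE 0.11) with little spread. Cx3cr1, the fractalkine receptor of resident macrophages and monocytes, fell to 5.75 ± 1.11 CPM in Irgm1KO, against 44.7 ± 29.1 CPM in WT (log2 -2.96, SE 0.46). Of the 12 largest rises, those not described so far were Ifi214 (7.85 ± 2.01 CPM in Irgm1KO and 0.545 ± 0.113 CPM in WT; log2 3.86, SE 0.23), a member of the interferon-inducible p200 family, and the adaptor Hsh2d (6.48 ± 1.81 CPM in Irgm1KO and 0.499 ± 0.0752 CPM in WT; log2 3.70, SE 0.22). Among tested genes, 1 had 0 to 3 counts in every WT library and at least 1 CPM on average in Irgm1KO. It was the keratin Krt16, named for this pattern after its values were seen. Krt16 had 104 to 321 counts in Irgm1KO libraries and at most 1 count in any WT library. Ifnb1 and Arg1, described above, came close to this pattern but did not meet the cut.

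Markers of other cell types were mostly rare, with exceptions in both directions. Genes that define T and NK cells (Cd3e, Cd8a), red cells (Hba-a1), mast cells (Cpa3) and adipocytes (Adipoq) had at most 1 count in any library. Other members had more. Of 3 tested T and NK cell genes 2 were higher by more than 2-fold, and Lck had 90 to 140 counts in Irgm1KO libraries and 34 to 72 in WT libraries. Of 2 tested eosinophil genes 2 were higher by more than 2-fold, both at low counts. Siglecf had 18 to 89 counts in Irgm1KO libraries and 6 to 21 in WT libraries, and Ccr3 36 to 70 and 19 to 27. The eosinophil genes Epx and Il5ra had 0 counts in every library, Prg2 at most 3 and Ear2 at most 10. The 1 tested platelet gene, Pf4, was lower, and 1 of 2 progenitor genes was lower. Fabp4 of the adipocyte list had 1066 to 1344 counts in Irgm1KO and 958 to 1806 in WT and was not called. Of 3 tested B cell genes 1 was lower, Ighm, the immunoglobulin heavy chain (8.04 ± 2.76 CPM in Irgm1KO and 46.2 ± 11.4 CPM in WT; log2 -2.52, SE 0.30). Both tested stromal genes were lower, among them the chemokine Cxcl12 (0.0832 ± 0.0166 CPM in Irgm1KO and 1.27 ± 0.714 CPM in WT). The 2 tested neutrophil genes went in different directions, with S100a8 lower (0.432 ± 0.133 CPM in Irgm1KO and 2.36 ± 0.601 CPM in WT) and the abundant G-CSF receptor Csf3r higher (119 ± 10.6 CPM in Irgm1KO and 94.5 ± 7.61 CPM in WT). The endothelial list was divided, 2 of 5 higher and 2 lower. The receptor Kdr was higher (182 ± 42.6 CPM in Irgm1KO and 33.8 ± 7.15 CPM in WT; log2 2.43, SE 0.22), and Pecam1 (0.988 ± 0.273 CPM in Irgm1KO and 4.46 ± 1.23 CPM in WT; log2 -2.17, SE 0.25) and Vwf (44.1 ± 11.8 CPM in Irgm1KO and 69.8 ± 15.8 CPM in WT; adjusted p = 0.0416) were lower. The Vwf call was lost without any 1 of Irgm1KO libraries 1, 2 and 4 and WT libraries 1 and 4, with adjusted p up to 0.104. Of 6 osteoclast genes 3 were higher and 2 lower. The cell fusion gene Ocstamp was higher (29.7 ± 6.44 CPM in Irgm1KO and 3.05 ± 0.926 CPM in WT; log2 3.27, SE 0.25), and the transcription factor Nfatc1 (77.0 ± 3.96 CPM in Irgm1KO and 93.7 ± 3.57 CPM in WT; log2 -0.28, SE 0.044) and Acp5 (5.88 ± 0.937 CPM in Irgm1KO and 7.65 ± 1.25 CPM in WT; adjusted p = 0.0347) were lower. The Acp5 call was lost without any 1 of Irgm1KO libraries 1, 3 and 4 and WT libraries 1 and 3, with adjusted p up to 0.0968. Of 6 dendritic cell genes 3 were higher, and the most abundant, Clec9a, was at 52.5 ± 1.67 CPM in Irgm1KO and 35.5 ± 7.46 CPM in WT (log2 0.57, SE 0.14). Summed over tested members, the B cell list (3 of 9 tested) ran from 10.3 to 17.4 CPM in Irgm1KO libraries and from 37.7 to 62.1 CPM in WT libraries. The stromal list (2 of 10) ran from 0.0731 to 0.169 CPM in Irgm1KO and from 0.823 to 2.50 CPM in WT. The neutrophil list (2 of 11), nearly all Csf3r, ran from 108 to 129.7 CPM in Irgm1KO and from 87.4 to 106 CPM in WT. Some of its untested members had more counts in WT. S100a9 had 0 to 1 counts in Irgm1KO and 4 to 185 in WT. Ngp had 1 to 5 in Irgm1KO and 4 to 120 in WT, and Ltf 0 to 4 and 1 to 39. Mpo and Elane reached 14 and 11 counts in WT and at most 1 in Irgm1KO. Ly6g, Camp, Retnlg and Cxcr2 had at most 4 counts in any library. The endothelial list (5 of 7), mostly Kdr and Vwf, ran from 185 to 258 CPM in Irgm1KO and from 87.9 to 124 CPM in WT. The osteoclast list (6 of 9) ran from 124 to 147 CPM in Irgm1KO and from 111 to 120.1 CPM in WT. The dendritic cell list (6 of 9) ran from 99.2 to 104 CPM in Irgm1KO and from 56.4 to 65.2 CPM in WT. Their part in the differences above was not tested.

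The first experiment compared Irgm1-KO with WT macrophages in 8 other libraries, sequenced for 100 cycles rather than 50, so it repeats the contrast with no library in common. Between them 14731 genes could be compared, of which 14114 are among the equally many tested above, and 2025 were higher in both experiments, which is 46.0% of the genes higher in the second and 83.0% of those higher in the first. Another 2010 were lower in both (46.4% and 79.8%). In the first experiment 16.6% of these genes were higher and 17.1% lower. Log2 fold changes correlated across genes with a Pearson r of 0.80, a description, since genes are not independent. The difference between the experiments' log2 fold changes was tested in 1 fit of 16 libraries, and 445 genes (3.02%) had a positive and 344 (2.34%) a negative difference, second minus first (5.36% in all). The negative count depended on libraries of the first experiment, with 652 genes without Irgm1-KO library 3, 549 without WT library 1, 227 without Irgm1-KO library 4 and 229 without WT library 3. Culture, sequencing and any other feature that differs between the experiments cannot be told apart in this comparison. Of 86 interferon-stimulated genes 0 had a positive difference (3 at an unadjusted p below 0.05 in edgeR and 1 by DESeq2) and 1 had a negative one, Cxcl10. With single libraries left out, at most 1 was positive, and 3 were negative without Irgm1-KO library 3 or WT library 1 of the first experiment. None of 20 heat-shock genes had either (1 positive and 0 negative at an unadjusted p below 0.05, 0 by DESeq2), with medians of 0.92 in the second and 0.98 in the first experiment.

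**Figure D4:**
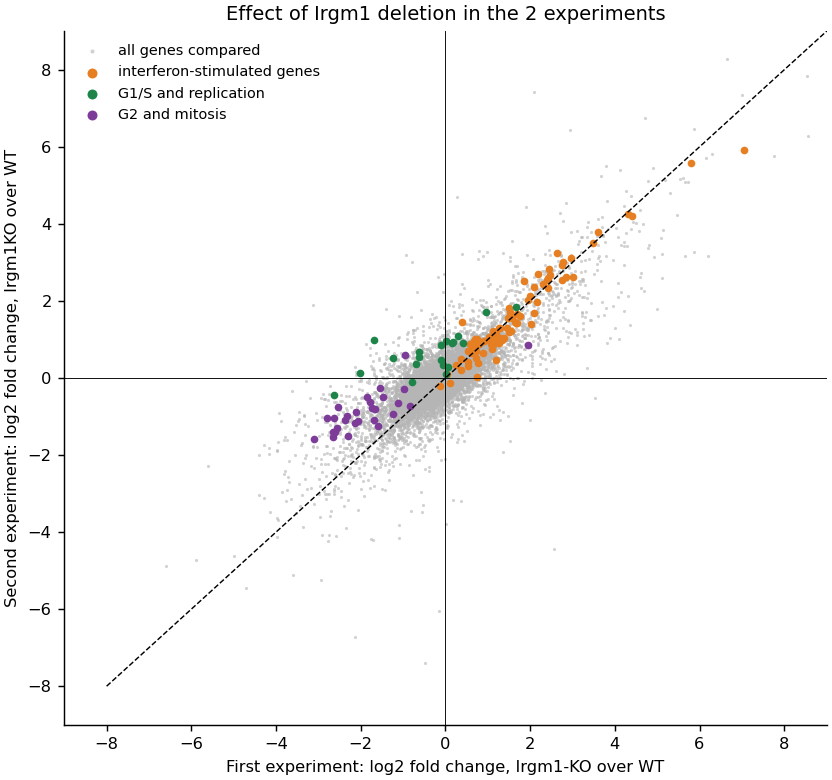
Log2 fold change of each gene on deletion of Irgm1 in the second experiment (Irgm1KO over WT, y axis) and in the first (Irgm1-KO over WT, x axis), for the 14731 genes compared. Interferon-stimulated genes (orange) lie along the diagonal, while genes of the G1/S transition and replication (green) and of mitosis (purple) lie mostly above it.

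Of the 37 gene lists, the cell cycle genes held the largest share of called differences. Of the 50 on the list, 36 had a positive difference (33 to 37 with 1 library left out) and 2 a negative one, against 3.02% and 2.34% of all genes. For replication and G1/S genes the median log2 fold change was 0.61 in the second experiment and -0.079 in the first, where 3 rose and 8 fell, and for mitosis genes it was -0.97 in the second and -1.96 in the first. Ccne2, the E-type cyclin, rose in the second experiment (0.98, SE 0.075) and fell in the first (-1.68, SE 0.29), a difference of 2.65 (SE 0.31; adjusted p = 0.000192). Mcm6 rose by 1.09 (SE 0.038) in the second and stood at 0.30 (SE 0.11, not called) in the first (difference 0.78, adjusted p = 0.000874). Cdc20 fell in both, with log2 fold changes of -1.50 in the second and -2.29 in the first (difference 0.78, SE 0.17). Other genes with the largest positive differences, among those that reach 5 CPM in any group, were Id1, an inhibitor of differentiation factors (3.19, SE 0.63), the receptor Notch4 (2.80, SE 0.51), Ocstamp (2.30, SE 0.29) and Serpinb1c (2.28, SE 0.36). Esco2 (2.43) and the mitosis genes Pbk (2.28) and Pimreg (2.26) were also among them, with smaller falls in the second experiment than in the first.

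**Figure D5:**
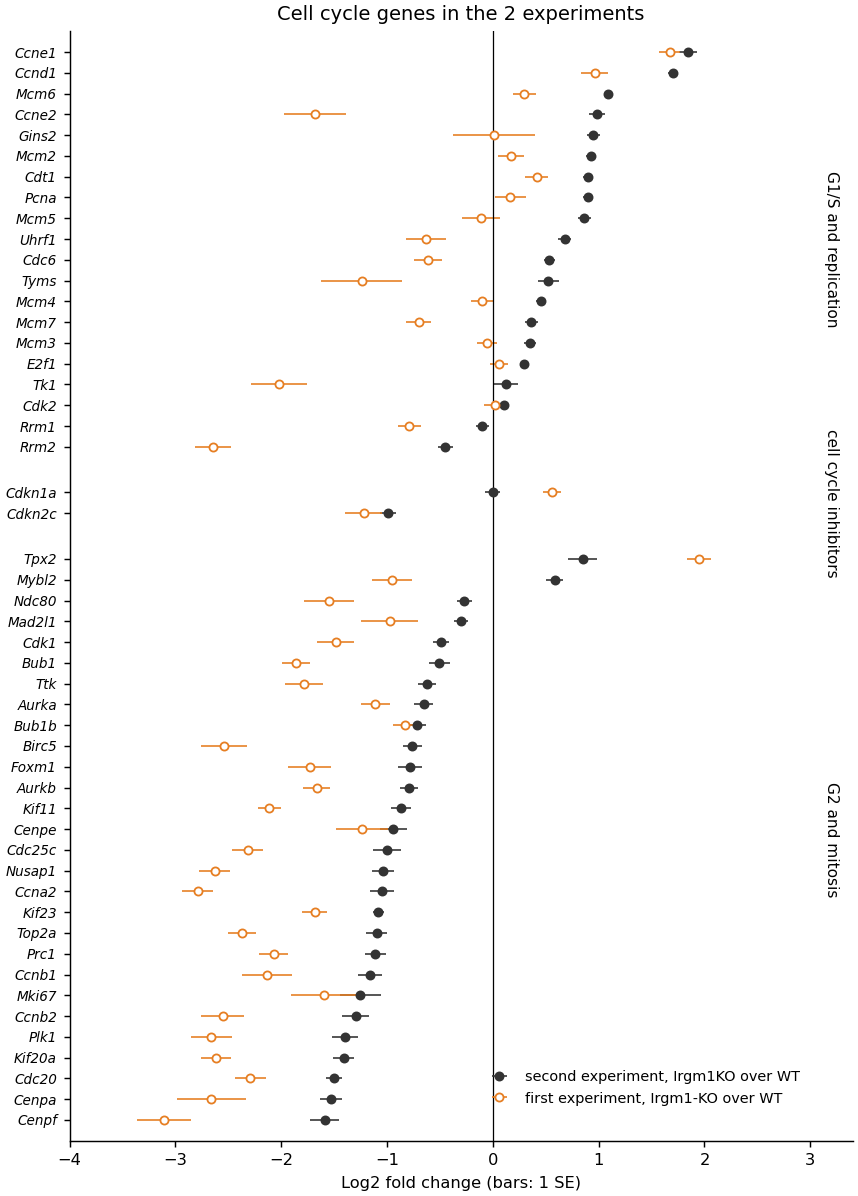
Log2 fold change of each of the 50 cell cycle genes in the second experiment (Irgm1KO over WT, filled) and in the first (Irgm1-KO over WT, open), with bars of 1 SE, grouped as G1/S and replication (above), cell cycle inhibitors and G2 and mitosis (below). Most replication genes are above 0 in the second experiment and near or below it in the first, and most mitosis genes are below 0 in both.

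Inflammatory genes differed between the experiments in both directions. Of 31 cytokines and chemokines 4 had a negative difference and 3 a positive one, and of 10 enzymes of nitric oxide, arginine and itaconate metabolism 4 and 1. The positive ones were Ccl9 (1.98, SE 0.47), Ccl6 (1.65, SE 0.29), Tnfsf13b (0.41, SE 0.10) and Arg1 (4.42, SE 0.60), of which Ccl9 and Tnfsf13b were named after their values were seen. Ccl6 and Tnfsf13b were called lower in the first experiment and not called in the second. The Ccl9 difference was lost without any 1 of Irgm1-KO libraries 1, 2 and 4 of the first experiment (adjusted p up to 0.0529). That of Tnfsf13b was lost with the replicate block (adjusted p = 0.0903) and without any 1 of Irgm1KO library 3 and WT library 4 of the second and Irgm1-KO library 2 and WT libraries 3 and 4 of the first (adjusted p up to 0.0598). Among genes with a negative difference, Nos2 had a log2 fold change of 2.11 in the second and 4.08 in the first (difference -1.98, SE 0.33; adjusted p = 0.00236), Acod1 0.64 and 2.43 (-1.79, SE 0.17) and the acute-phase gene Saa3 1.29 and 4.00 (-2.72, SE 0.31). Ccl5 (-1.53, SE 0.23), Cxcl9 (-1.34, SE 0.19) and C3 (-1.42, SE 0.26) had negative differences too. Of 26 NF-kB feedback and target genes 9 had a negative difference, among them Nfkbia (-0.61, SE 0.11) and Icam1 (-0.76, SE 0.13), of 33 antioxidant genes 10, and of 34 ATF4 genes 8, a count that ran from 4 to 13 with 1 library left out (13 without Irgm1-KO library 3 of the first experiment). Slc7a11, which did not pass the test in the second experiment, rose by 2.25 (SE 0.27) in the first (difference -2.30, adjusted p = 0.00239). The largest negative differences among named genes included the membrane protease Mmp14 (-3.10, SE 0.54, and -2.48 without WT library 2 of the second experiment), the fungal receptor Clec4n (-2.07, SE 0.42), the ectoenzyme Cd38 (-2.05, SE 0.30), the formyl peptide receptor Fpr2 (-1.99, SE 0.30), Rilpl1 (-2.05), Plpp1 (-2.01) and Tma16 (-2.01).

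Genes called in opposite directions, with a called difference, numbered 59, of which 45 were higher in the second and lower in the first experiment and 14 the reverse. Fos rose by 1.54 (SE 0.13) in the second and was at -0.36 (SE 0.11) in the first (difference 1.89, SE 0.18). Lpl rose by 1.03 (SE 0.094) in the second and was at -0.37 (SE 0.10) in the first (difference 1.39, SE 0.14), and Pparg by 0.82 (SE 0.10) against -0.26 (SE 0.076) in the first (difference 1.08, SE 0.13). Of the mitochondrially encoded mRNAs, which fell in both experiments, mt-Nd1 (0.64, SE 0.16) and mt-Nd2 (0.52, SE 0.13) had positive differences (adjusted p = 0.0257 and 0.0252). Both calls were lost with the replicate block (adjusted p = 0.0585 and 0.0545) and without any 1 of Irgm1KO libraries 2 and 3 and WT libraries 1 and 2 of the second experiment and Irgm1-KO libraries 2 and 4 of the first, with adjusted p up to 0.0625 and 0.0610, and that of mt-Nd1 also without WT library 4 of the first (adjusted p = 0.0533). The rise of nuclear-encoded subunits and carriers was hardly seen in the first experiment, where 2 of 44 were called higher and 0 lower. Their median log2 fold change was 0.21 in the second experiment and -0.019 in the first. None of the 44 had a called difference between the experiments with all libraries, and 1 had a positive one without Irgm1-KO library 3 of the first.

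On chromosome 11, within 1 Mb of Irgm1 (distances in build GRCm38), 11 of 22 tested genes were called (50.0%), 9 higher and 2 lower, against 52.5% from 1 to 5 Mb, 65.3% from 5 to 10 Mb, 67.9% from 10 to 20 Mb and 61.6% farther along the chromosome. Calls over 2-fold made up 13.6%, 11.9%, 8.16%, 8.21% and 10.9% in the same order. The genes named here from within 1 Mb were picked after their values were seen. Rack1, a ribosomal scaffold at -0.06 Mb, was at 512 ± 21.4 CPM in Irgm1KO and 592 ± 22.6 CPM in WT (log2 -0.21, SE 0.045). Flt4, a vascular endothelial growth factor receptor at 0.76 Mb, was at 34.3 ± 7.37 CPM in Irgm1KO and 16.5 ± 2.12 CPM in WT (log2 1.05, SE 0.16). Called genes that lie closer than Flt4 include Gm12185 (log2 0.68, at 0.08 Mb) and Olfr56 (log2 1.43, at 0.19 Mb). The immunity-related GTPases Tgtp1 (log2 0.69, at 0.12 Mb) and Tgtp2 (log2 0.17, at 0.19 Mb) lie there too. Of 59 tested genes from 1 to 5 Mb, 17 were higher and 14 lower, 7 of them by more than 2-fold. Adam19 (log2 -4.72) and Timd4 (log2 3.16, not called), both described above, lie at -2.77 and -2.04 Mb from Irgm1. Zfp354c (log2 -2.57) lies at 1.95 Mb. These were picked after their values were seen, and whether their position plays a part was not tested.

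Libraries of a group were close to each other for most genes. Among 8946 genes with at least 5 CPM in both groups, the median coefficient of variation was 4.61% over the Irgm1KO libraries and 4.43% over the WT libraries, and 14 and 18 genes exceeded 50%. Among the genes with the widest spread, named after their values were seen, Apoe, the apolipoprotein of cholesterol transport, had 149, 118, 172 and 199.8 CPM in Irgm1KO libraries 1 to 4, against 584, 2492, 997 and 643 CPM in WT libraries 1 to 4. WT library 2 was the highest, and the fall in Irgm1KO (log2 -2.88, SE 0.54; adjusted p = 0.00293) was larger than this spread, with a log2 fold change of -2.22 without that library. Gdf3 had 79.6, 48.1, 21.5 and 80.5 CPM in Irgm1KO libraries 1 to 4, against 26.9, 7.02, 82.3 and 23.9 CPM in WT libraries 1 to 4, with no separation of the groups (adjusted p = 0.470), and Lars2 had 496, 1169.7, 512 and 1456 CPM in Irgm1KO libraries 1 to 4, against 1424, 662, 401 and 300.1 CPM in WT libraries 1 to 4 (adjusted p = 0.619). The share of the most abundant gene, ENSMUSG00000119584, was 1.27%, 2.95%, 1.26% and 3.60% in Irgm1KO libraries 1 to 4. In WT libraries 1 to 4 it was 10.3%, 4.02%, 2.26% and 1.52%. Lars2 and this gene were thus highest in the same library of each group, and a link between them was not tested.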

How the data were processed

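Messenger RNA was enriched from total RNA of cultured macrophages and built into libraries with a Kapa mRNA HyperPrep kit, per the labels' protocols. The deposited tables hold whole-number counts per Ensembl gene, not normalized, which the authors made with fastp, STAR and build GRCm39, per the submitters' processing notes, which also name DESeq2. The sources used here give no versions, counter, annotation or strand setting, so reads of overlapping or antisense genes cannot be told apart and near-identical copies may share reads. Symbols were found for 91.2% of the 56941 IDs of the second experiment, and 1174 of 1176 list entries were matched. The number of sample columns without a sample was 0.

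Low counts were removed with filterByExpr (10 counts per gene, 15 in total), the rest scaled by TMM and fitted with edgeR 4.0.16 (robust quasi-likelihood test, R 4.3.3), with Benjamini-Hochberg adjustment at 0.05, after a check on simulated data. Only the 8 control libraries entered the fit, because the fenofibrate libraries share replicate numbers with them. The difference between experiments was fitted on 16 libraries with a mean per group. The biological coefficient of variation was 0.101 for the 8 libraries and 0.149 for the 16. CPM are TMM-scaled, and principal components used log2(CPM + 1). Pairs of libraries within a group differed beyond counting noise in every case (chi-square per degree of freedom 32.6 to 569), so all were counted separately.

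Named genes were Irgm1, a fixed list, the 12 largest rises and 12 largest falls among genes whose groups do not overlap and that reach 5 CPM in either group, the 5 called members per list and direction of smallest p and the 3 most abundant uncalled members of each list, every member of lists of 12 or fewer, and the 8 largest differences between experiments each way. Predicted genes, Xist and Y-linked genes were left out of the ranked parts. Some genes that the rule names are not reported here. The members and lists were chosen with earlier results of these data known. Promoters came from RefSeq (GRCm38.p6) and distances to Irgm1 from GENCODE M21. Alternatives were DESeq2 1.42.0, its size factors, no filter, a replicate block, log2 Xist as a covariate, leaving out the most abundant gene or each library, all 16 libraries of the second experiment, a test above 1.2-fold and, chosen after seeing the data, only libraries with high Xist.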

Additional observations from a re-analysis of the deposited data

Results flagged for a closer look

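Among the named genes and some library measures, 472 groups of 4 libraries were examined for a library whose gap to its nearest neighbour was most of the group's range (above Dixon's 95% limit), and 21 had one. The library measures were total counts, the mitochondrially encoded share and the share of the most abundant gene. Chance alone gives about 1 in 20 such groups. The highest Irgm1KO values stood apart for Acsl1 in Irgm1KO library 2 (1046 CPM, the other 3 from 858 to 889), Ncoa4 in Irgm1KO library 1 (44.7 CPM, the other 3 from 40.9 to 41.3) and Rack1 in Irgm1KO library 4 (544 CPM, the other 3 from 499 to 504). The same held for Tlr8 in Irgm1KO library 4 (293 CPM, the other 3 from 282 to 283). The lowest Irgm1KO values stood apart for Aldoa in Irgm1KO library 3 (1545 CPM, the other 3 from 1655 to 1678), Fabp5 in Irgm1KO library 1 (116 CPM, the other 3 from 128 to 130.2) and Nos2 in Irgm1KO library 3 (181 CPM, the other 3 from 266 to 268). The same held for Tlr2 in Irgm1KO library 3 (117 CPM, the other 3 from 127 to 129). The highest WT values stood apart for Arg1 in WT library 4 (0.0828 CPM, the other 3 from 0.0229 to 0.0323), Cx3cr1 in WT library 2 (88.1 CPM, the other 3 from 26.7 to 34.0) and Herpud1 in WT library 4 (76.8 CPM, the other 3 from 67.2 to 68.4). The same held for Icam1 in WT library 4 (481 CPM, the other 3 from 442 to 448), Map1lc3b in WT library 1 (98.3 CPM, the other 3 from 93.0 to 93.6) and Nxpe5 in WT library 4 (38.1 CPM, the other 3 from 33.2 to 33.9). It also held for Timd4 in WT library 1 (8.70 CPM, the other 3 from 0.0800 to 0.688). The lowest WT values stood apart for Flt4 in WT library 3 (13.3 CPM, the other 3 from 17.5 to 17.7), Hadha in WT library 4 (123 CPM, the other 3 all at 125) and Pfkm in WT library 4 (27.7 CPM, the other 3 from 30.6 to 31.1). The same held for Pex5 in WT library 2 (35.4 CPM, the other 3 from 37.5 to 37.9), Stip1 in WT library 2 (79.4 CPM, the other 3 from 83.4 to 84.0) and Tgtp2 in WT library 2 (333 CPM, the other 3 from 359 to 362).

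For 35 named genes the log2 fold change of Irgm1 deletion differed between the second and the first experiment by the test of the difference itself (edgeR's quasi-likelihood test, adjusted p below 0.05). Each value is the second minus the first, on the log2 scale. The difference was positive for Arg1 (4.42), Id1 (3.19), Notch4 (2.80), Ccne2 (2.65), Esco2 (2.43), Ocstamp (2.30), Pbk (2.28), Serpinb1c (2.28), Pimreg (2.26), Ccl9 (1.98), Fos (1.89), Ccl6 (1.65), Lpl (1.39), Pparg (1.08), Mcm6 (0.78), Cdc20 (0.78), mt-Nd1 (0.64), mt-Nd2 (0.52) and Tnfsf13b (0.41). The difference was negative for Mmp14 (-3.10), Saa3 (-2.72), Slc7a11 (-2.30), Clec4n (-2.07), Cd38 (-2.05), Rilpl1 (-2.05), Plpp1 (-2.01), Tma16 (-2.01), Fpr2 (-1.99), Nos2 (-1.98), Acod1 (-1.79), Ccl5 (-1.53), C3 (-1.42), Cxcl9 (-1.34), Icam1 (-0.76) and Nfkbia (-0.61).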

How the results depend on the processing

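Genes higher and lower in Irgm1KO (4432 and 4353) fell to 2368 and 2407 when a change above 1.2-fold was required, which asks for more by construction, and stayed within 1.5 times under every other alternative. With single libraries left out the counts ran from 4200 to 4502 higher and from 4087 to 4220 lower, and over 2-fold from 800 to 866 higher and from 752 to 843 lower. No named gene changed direction with a call. Replicate numbers did not pair the libraries (correlation of same-numbered deviations -0.075, -0.435, -0.372 and -0.190), and the replicate block gave 4024 higher and 3957 lower genes. Apart from single libraries left out and the 1.2-fold requirement, which ended 23 calls of named genes, calls were lost for Cd36 (adjusted p = 0.0542 with no filter, 0.0660 with the block and 0.0699 in high-Xist libraries), Cxcl9 (0.0769 with no filter and 0.0572 in high-Xist libraries), Vwf (0.102 with no filter, 0.126 with the block, 0.0802 with Xist as a covariate and 0.0945 in high-Xist libraries) and Mertk (0.143 in high-Xist libraries). They were also lost for Cox6c (adjusted p = 0.0809 with Xist as a covariate, 0.0601 without the most abundant gene and 0.100 with all 16 libraries), Acp5 (0.0817 with the block and 0.0845 with all 16 libraries), Clec9a (0.0560 with all 16 libraries) and Ly6e (0.0718 with all 16 libraries, where 0 interferon-stimulated genes were lower). Calls were gained for Gbp2 (adjusted p = 0.0484 with no filter and 0.0155 by DESeq2), Ly6a (0.0193 by DESeq2), Timd4 (0.0186 by DESeq2 and 0.0290 with all 16 libraries), Nfkbia (0.0448 with the block and 0.00125 in high-Xist libraries), Icam1 (0.00857 in high-Xist libraries) and Cd74 (0.0489 in high-Xist libraries). The cause was not tested.

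Positive and negative differences between the experiments (445 and 344) numbered 701 and 578 by DESeq2 and 264 and 168 with the replicate block, and the cause was not tested. With single libraries left out they ran from 348 to 649 and from 227 to 652. Library totals of 83.3 M counts or more leave genes near 1 CPM measured by about 100 counts. The 6 mitochondrially encoded mRNAs at 5 counts or fewer cannot be compared, for a reason that the counts do not show.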
